A study of Homo sapiens with 8 samples.

Results

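The ABC drug exporters are membrane pumps that use ATP to move drugs, drug conjugates and natural organic anions out of cells. The group was defined by symbol and comprised 8 genes, ABCB1, ABCC1, ABCC2, ABCC3, ABCC4, ABCC5, ABCC10 and ABCG2. All 8 were measured, among 19775 genes in all. Their levels were read from 8 expression arrays of HuCCT1, an established cholangiocarcinoma cell line. On 4 arrays the cells carried the construct labelled YAP shRNA 1, which targets YAP1, the transcriptional coactivator of the Hippo pathway, and on 4 a control shRNA. All cells, controls included, received doxycycline at 100 ng/ml 3 days before seeding to switch the shRNA on. A single shRNA against YAP1 was used in 1 cell line. The labels do not state whether the replicates came from different cultures, and the p-values therefore cover only the spread among these 8 samples, part or all of which may be technical.

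Exporters differ in where they sit in a polarised duct cell and in what they carry. ABCB1 (P-glycoprotein), ABCC2 (MRP2) and ABCG2 (BCRP) are apical pumps that face the lumen of the duct. ABCC3 (MRP3) and ABCC1 (MRP1) are basolateral and return conjugates towards the blood side, while ABCC4, ABCC5 and ABCC10 extend the MRP group to cyclic nucleotides, nucleotide analogues and taxanes. YAP has no DNA-binding domain and acts on genes mainly through the TEAD transcription factors, which read the sequence CATTCC.

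ABCC3 rose and ABCG2 fell with the YAP shRNA. ABCC3 was 1.91-fold higher on its brightest probe set, and ABCG2, with 1 probe set, 1.37-fold lower. The 5 ABCC3 probe sets differed, with log2 fold changes from -0.04 to 0.94. The other 6 exporters did not pass the test (limma, adjusted p below 0.05 over all genes). Thus 1 of 8 exporters was called higher, where 9.49% of all genes were, and 1 of 8 lower, where 7.17% were. In either direction 16.7% of genes were called, so the count itself is no result about the exporters as a group. Their median log2 fold change was 0.10, against 0.01 for all 19775 genes. That median leaned on control shRNA replicate 4, an array described below. Without it ABCC3, ABCB1 and ABCC1 stood at 0.98, 0.11 and 0.10, and ABCC4, ABCC2 and ABCG2 at -0.10, -0.13 and -0.42. ABCC10 (0.05) and ABCC5 (0.02) then lay in the middle. The arrays of the YAP shRNA and the control shRNA did not overlap for 4 exporters (ABCC1, ABCC3, ABCC4 and ABCG2), as they did not for 24.3% of all genes.

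The bases before the transcription start are shown for ABCG2, the exporter past the test that has an entry in the RefSeq promoter table of GRCh38.p14, and for ABCC5, with 1 probe set past the test. Of the 8 exporters, 6 matched the table, with 12 annotated starts between them. ABCC1 and ABCC3 are named only. Capitals mark the TEAD core CATTCC, searched on both strands in the 250 bases before each start.
ABCG2 (chr4:88158910-88159159, minus strand): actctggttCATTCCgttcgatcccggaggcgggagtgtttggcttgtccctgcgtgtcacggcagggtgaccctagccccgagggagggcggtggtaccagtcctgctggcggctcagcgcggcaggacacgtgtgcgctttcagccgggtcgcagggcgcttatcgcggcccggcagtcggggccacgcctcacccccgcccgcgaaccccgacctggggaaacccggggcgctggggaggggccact
ABCC5 (chr3:184017885-184018134, minus strand): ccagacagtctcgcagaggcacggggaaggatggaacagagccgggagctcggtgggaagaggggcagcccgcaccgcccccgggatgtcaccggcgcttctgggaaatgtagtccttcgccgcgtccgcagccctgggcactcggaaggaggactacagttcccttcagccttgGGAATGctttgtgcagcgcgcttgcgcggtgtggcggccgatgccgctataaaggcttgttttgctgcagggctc
The ABCG2 match begins 241 bases before the annotated start and reads CATTCC on the gene's strand. The ABCC5 match begins 75 bases before the start and reads as the reverse complement, GGAATG. The ABCG2 window belongs to 1 of 5 annotated ABCG2 starts, and the other 4 windows hold no match. One of the ABCB1 windows also holds a match, which gives 3 of 12 exporter windows, while 11.9% of all 35116 windows of that length hold one. The antioxidant response element TGACNNNGC, bound by NRF2, is in 2 of the 12 windows (ABCC4 and ABCC10) and in 10.9% of all windows. The AP-1 motif TGANTCA is in 1 (ABCB1) and in 6.57% of all windows. All 3 motifs were searched on both strands, and the windows shown hold neither of the other motifs. A match is a run of letters and not a measured binding site.

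The targeted gene was lower on every YAP shRNA array. YAP1 averaged 10.50 ± 0.0702 on the log2 scale with the YAP shRNA and 12.64 ± 0.0860 with the control shRNA (SD, n = 4 each). It fell by 2.14 on the log2 scale (standard error 0.0564; limma adjusted p = 6.15e-07). The series title speaks of YAP overexpression, and this fall goes with the shRNA of the sample labels. Array medians lay between 6.22 and 6.25. Control shRNA replicate 4 stood apart, with a mean correlation of 0.9967 with the other control arrays across genes, where the other 7 arrays had 0.9978 to 0.9988 with their own group. Values with and without it are therefore given for each exporter, and without it 19.6% of genes were called. Of the biliary epithelium markers, 5 of 6 were measured. KRT19, EPCAM, KRT7 and SOX9 averaged 14.19, 13.07, 13.60 and 13.16 with the YAP shRNA and 14.04, 13.06, 13.68 and 13.23 with the control shRNA, and the fifth is CFTR, described with the ABC family. KRT19 rose by 0.15 (limma adjusted p = 0.0137), and EPCAM, KRT7 and SOX9 did not pass. Markers of hepatocytes (6 measured of 6), leukocytes (4 of 6), fibroblasts (6 of 6) and endothelium (6 of 6) had mean levels per array of 6.69 to 6.90, 4.68 to 4.81, 5.83 to 5.94 and 5.10 to 5.27 with the YAP shRNA. With the control shRNA they had 6.69 to 6.79, 4.37 to 4.66, 5.66 to 5.98 and 4.96 to 5.26. Of these, SERPINA1, LYZ, CSF1R and COL1A1 rose by 0.19, 0.86, 0.31 and 0.52 and PTPRC fell by 0.22, and their part in the exporter values was not tested. The list means hide single markers that were brighter. SERPINA1 averaged 12.91 with the YAP shRNA and 12.72 with the control shRNA, COL1A1 8.48 and 7.95, and LYZ 7.19 and 6.33. CSF1R and PTPRC were dim, at 4.97 and 3.74 with the YAP shRNA and 4.67 and 3.96 with the control shRNA. The PTPRC call was lost without control shRNA replicate 4 (limma adjusted p = 0.0663). CD3E, a T cell marker and the dimmest of these markers, averaged 3.08 with the YAP shRNA and 3.16 with the control shRNA.

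ABCC3 encodes MRP3, a basolateral pump of bile duct cells and hepatocytes that carries glucuronides and bile salts. Its brightest probe set, 208161_s_at, read 8.32, 8.29, 8.32 and 8.54 on the YAP shRNA arrays, against 7.53, 7.23, 7.42 and 7.56 on the control arrays. Every YAP shRNA array lay above every control array, and YAP shRNA replicate 4 was the highest of all. The means were 8.37 ± 0.118 with the YAP shRNA and 7.43 ± 0.148 with the control shRNA (SD, n = 4 each). ABCC3 thus rose by 0.94 on the log2 scale (standard error 0.0856, 95% interval 0.74 to 1.13, limma adjusted p = 0.000217). The two-sided exact permutation p was 0.0286, the smallest that 4 arrays against 4 allow. Without control shRNA replicate 4 the log2 fold change was 0.98, and without YAP shRNA replicate 4 it was 0.88.

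**Figure D1:**
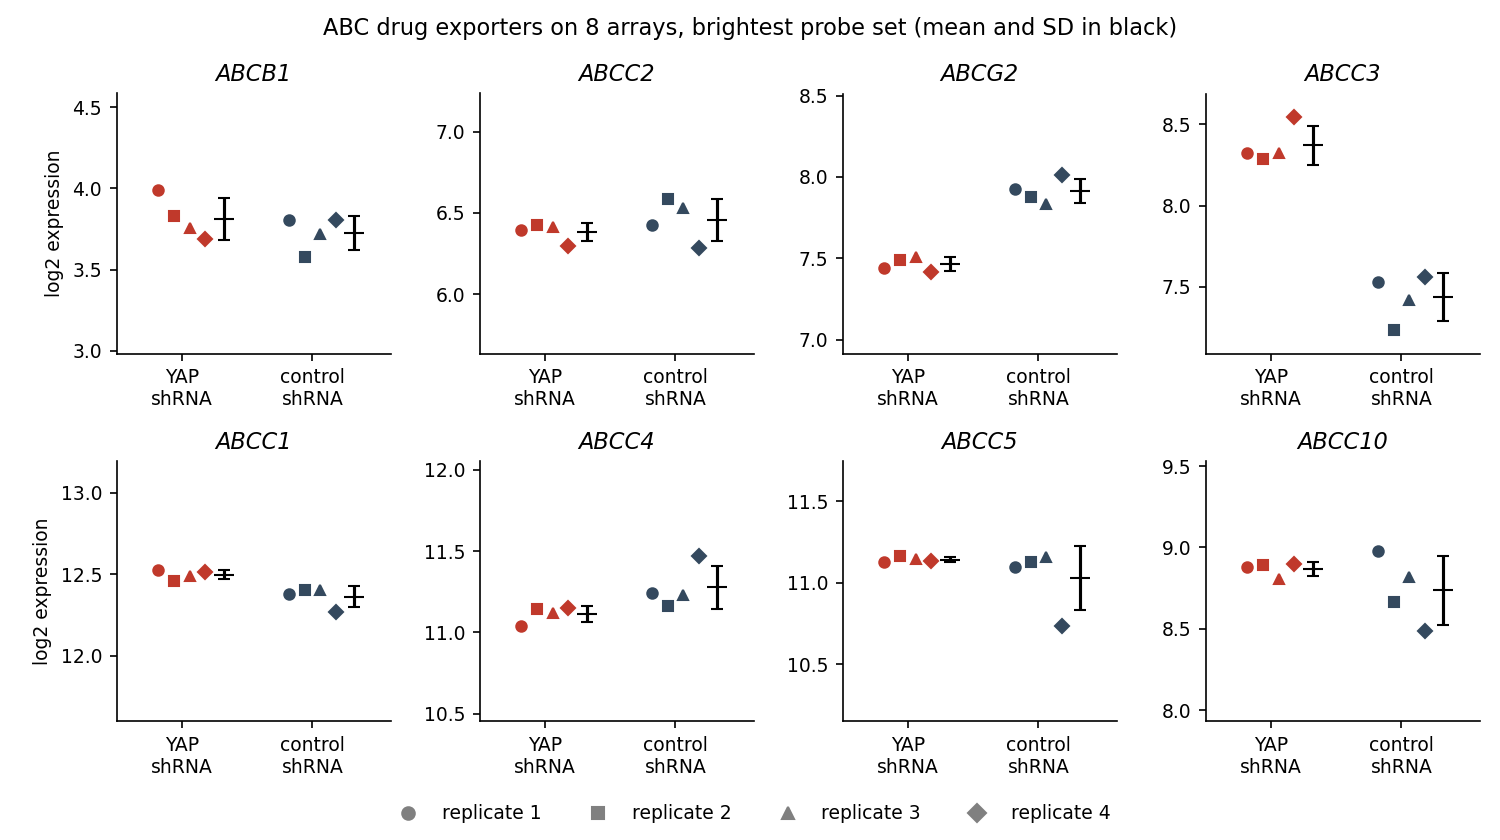
Log2 expression of the 8 ABC drug exporters on each array, brightest probe set, with YAP shRNA arrays in red on the left and control shRNA arrays in dark blue on the right. Symbols mark replicates, black bars show the mean and SD (n = 4 each), and every panel spans the same number of log2 units. ABCC3 (8.37 with the YAP shRNA, 7.43 with the control shRNA) and ABCG2 (7.46 and 7.91) show the widest gaps, and control shRNA replicate 4 (dark diamond) stands low for ABCC5 at 10.73.

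The 5 ABCC3 probe sets gave log2 fold changes from -0.04 to 0.94, and as their mean ABCC3 rose by 0.45 (limma adjusted p = 0.00139). Probe set 209641_s_at read 6.93 to 7.11 with the YAP shRNA and 6.17 to 6.54 with the control shRNA, a log2 fold change of 0.68 (limma over all probe sets, adjusted p = 0.000967). Probe set 239217_x_at read 7.16 to 7.32 and 6.62 to 7.03 in the same groups, with a log2 fold change of 0.46 (limma adjusted p = 0.0105). For 208161_s_at and these 2 the groups did not overlap, and all 3 passed the test. Probe set 230682_x_at had a log2 fold change of 0.24 and did not pass (limma adjusted p = 0.116). Probe set 242553_at read 7.09, 7.03, 7.17 and 7.10 with the YAP shRNA and 6.97, 7.24, 7.04 and 7.32 with the control shRNA. Its groups overlapped, with a log2 fold change of -0.04 and a 95% interval of -0.23 to 0.14 (limma adjusted p = 0.807).

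Probe sets of the same gene were also compared array by array. The difference of 208161_s_at minus 242553_at averaged 1.27 with the YAP shRNA and 0.29 with the control shRNA, so that it was 0.98 larger with the YAP shRNA (two-sided exact permutation p = 0.0286, or 0.0686 with Benjamini-Hochberg adjustment over the 12 pairs of probe sets compared). Of the 12 pairs, 5 reached that smallest p, all 4 of ABCC3 and 1 of ABCC5, and none passed 0.05 after adjustment. At this smallest p the adjusted value depends on how many pairs reach it, not on the size of the difference. The adjusted value therefore cannot decide whether the probe sets of a gene changed unequally. All 4 ABCC3 pairs share 208161_s_at and are not separate tests. On this array type the ending _s_at marks probes shared by several transcripts and _x_at probes prone to cross-hybridisation. The ABCC3 probe sets past the test all carry these endings and 242553_at does not. Which transcript regions the probe sets read was not analysed here.

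**Figure D2:**
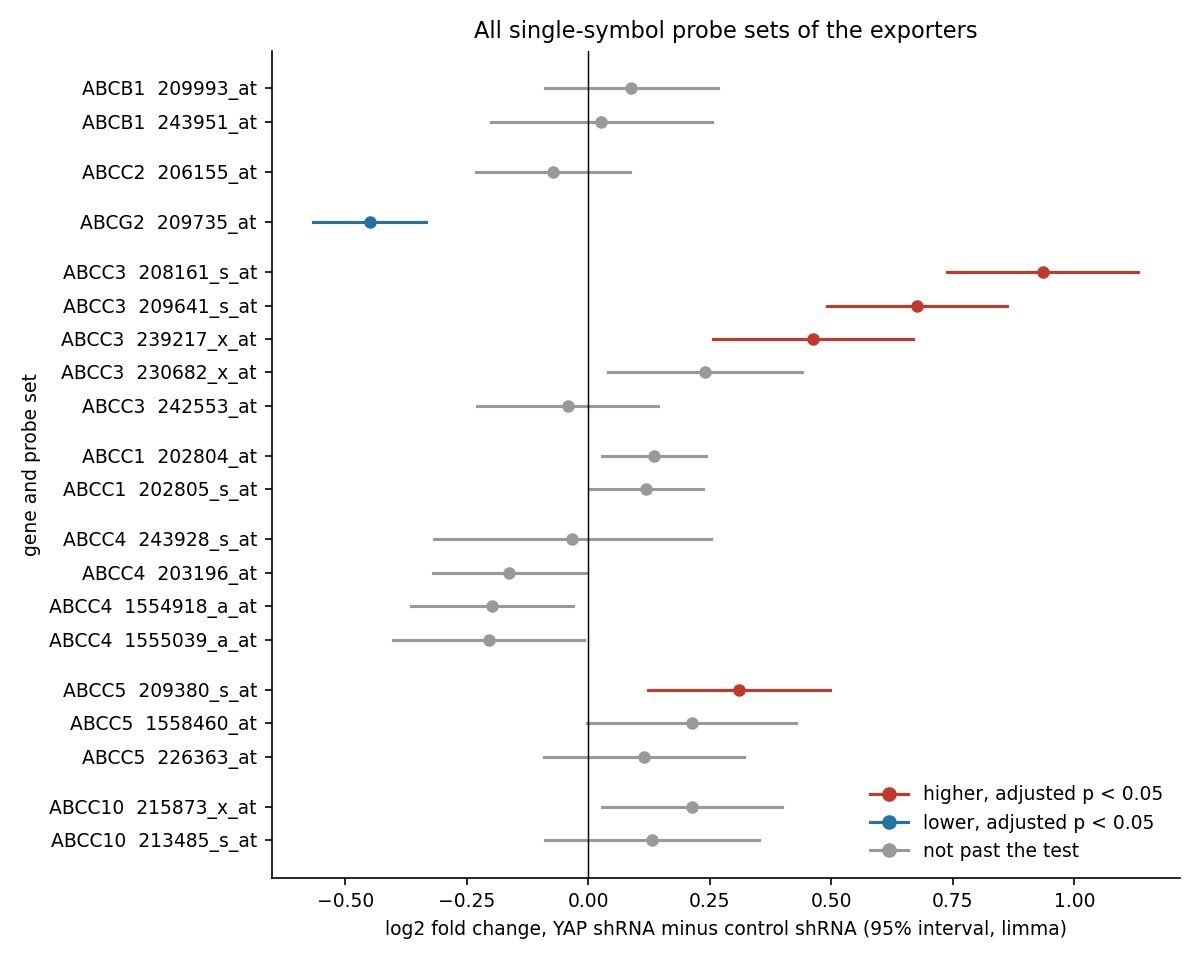
Log2 fold change (YAP shRNA minus control shRNA) of the 20 probe sets of the 8 exporters, with 95% intervals from limma over all probe sets. Red marks higher and blue lower at an adjusted p below 0.05. The ABCC3 probe sets run from -0.04 to 0.94, whereas both ABCC1 probe sets lie close together at 0.14 and 0.12.

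ABCG2 encodes BCRP, an apical pump that works as a dimer and carries urate, porphyrins, topotecan and mitoxantrone. Its probe set, 209735_at, is the only one with its symbol alone, and read 7.44, 7.49, 7.51 and 7.41 on the YAP shRNA arrays, against 7.92, 7.88, 7.84 and 8.01 on the control arrays. Every YAP shRNA array lay below every control array, and the gap between the groups was wider than the range within either. The means were 7.46 ± 0.0428 and 7.91 ± 0.0755 in the same order (SD, n = 4 each). ABCG2 fell by 0.45 on the log2 scale, with a 95% interval of -0.56 to -0.34 (standard error 0.0482; limma adjusted p = 0.000437; exact permutation p = 0.0286). Without control shRNA replicate 4, its highest array, ABCG2 fell by 0.42.

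The other apical pumps did not pass the test. ABCC2, the pump for conjugated bilirubin, read 6.39, 6.43, 6.41 and 6.30 with the YAP shRNA and 6.43, 6.58, 6.53 and 6.29 with the control shRNA. The groups overlapped, with a log2 fold change of -0.07 and a 95% interval of -0.23 to 0.08 (limma adjusted p = 0.547). It was -0.13 without control shRNA replicate 4 (limma adjusted p = 0.133), and without control shRNA replicate 2, control shRNA replicate 3 or YAP shRNA replicate 4 it was -0.031, -0.049 and -0.045 (limma adjusted p from 0.740 to 0.822). ABCB1, the classical multidrug pump for hydrophobic drugs, read 3.99, 3.83, 3.75 and 3.69 with the YAP shRNA and 3.80, 3.58, 3.72 and 3.80 with the control shRNA. On these arrays 9.73% of genes had a dimmer probe set, and the deposited values carry no detection call, so a level near background cannot be told from a low one. ABCB1 had a log2 fold change of 0.09 with a 95% interval of -0.09 to 0.26 (limma adjusted p = 0.516), and its second probe set gave 0.03. The value was 0.11 without control shRNA replicate 4 (limma adjusted p = 0.400). With other single arrays left out it ran from 0.031 without YAP shRNA replicate 1 to 0.13 without YAP shRNA replicate 4, and it was 0.039 without control shRNA replicate 2. A further probe set that GEO's platform annotation assigns to both ABCB4 and ABCB1 was left out.

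Among the basolateral MRPs, ABCC1 was close to the threshold. ABCC1 exports glutathione conjugates and leukotriene C4, and its brightest probe set read 12.53, 12.46, 12.49 and 12.51 with the YAP shRNA and 12.38, 12.40, 12.40 and 12.27 with the control shRNA. The groups did not overlap, by a narrow margin. On the log2 scale the difference was 0.14 (standard error 0.0432, 95% interval 0.04 to 0.23, limma adjusted p = 0.0685). Its second probe set gave 0.12. Without control shRNA replicate 4, its lowest array, the value was 0.10 (limma adjusted p = 0.0730). With the dimmest 25% of genes left out before the fit, it passed at the same fold change (limma adjusted p = 0.0394). In that fit fewer genes entered the adjustment, and the standard error was also smaller, at 0.0403.

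ABCC4, which exports cyclic nucleotides and prostaglandins, did not pass the test. It read 11.04, 11.15, 11.12 and 11.15 with the YAP shRNA and 11.24, 11.16, 11.23 and 11.47 with the control shRNA. YAP shRNA replicate 4 and control shRNA replicate 2 nearly met, and control shRNA replicate 4 was the highest array. The log2 fold change was -0.16 with a 95% interval of -0.32 to -0.01 (limma adjusted p = 0.150), and -0.10 without control shRNA replicate 4. Its other 3 probe sets gave -0.20, -0.20 and -0.03, and none passed. As the mean of its probe sets ABCC4 had a log2 fold change of -0.15 and came close to the threshold without passing (limma adjusted p = 0.0648).

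Neither ABCC5 nor ABCC10 passed on its brightest probe set, with or without control shRNA replicate 4. ABCC5, an exporter of cyclic nucleotides and nucleotide analogues, read 11.13, 11.16, 11.14 and 11.13 with the YAP shRNA and 11.10, 11.13, 11.16 and 10.73 with the control shRNA. The groups overlapped, with control shRNA replicate 4 low and YAP shRNA replicate 2 the highest array. The SD was 0.0152 with the YAP shRNA and 0.198 with the control shRNA. This probe set gave a log2 fold change of 0.11 (limma adjusted p = 0.463) and 0.02 without control shRNA replicate 4 (limma adjusted p = 0.797). A dimmer ABCC5 probe set, 209380_s_at, read 9.16, 9.06, 9.09 and 9.08 with the YAP shRNA and 8.83, 8.90, 8.90 and 8.54 with the control shRNA. Its groups did not overlap, and it rose by 0.31 (limma over all probe sets, adjusted p = 0.0384), or by 0.23 without control shRNA replicate 4 (limma adjusted p = 0.0122). The difference of the brightest ABCC5 probe set minus this one was 2.04 with the YAP shRNA and 2.24 with the control shRNA, -0.20 apart (exact permutation p = 0.0286, adjusted 0.0686). The third probe set gave 0.21 and did not pass (limma adjusted p = 0.193), while without control shRNA replicate 4 it stood at 0.29 (limma adjusted p = 0.0499).

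ABCC10, an MRP that carries taxanes, read 8.88, 8.89, 8.81 and 8.90 with the YAP shRNA and 8.98, 8.67, 8.82 and 8.48 with the control shRNA. The controls spread on both sides of the YAP shRNA arrays. The log2 fold change was 0.13 with a 95% interval of -0.09 to 0.35 (limma adjusted p = 0.429), and 0.05 without control shRNA replicate 4. It was 0.21 without control shRNA replicate 1, its highest array (limma adjusted p = 0.124). Its second probe set gave 0.21 with groups that did not overlap and did not pass (limma adjusted p = 0.131). Over the 20 exporter probe sets, 4 were called higher (3 of ABCC3 and 1 of ABCC5) and 1 lower (ABCG2), where 13.6% of the 41097 probe sets with 1 symbol were called in either direction.

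**Figure D3:**
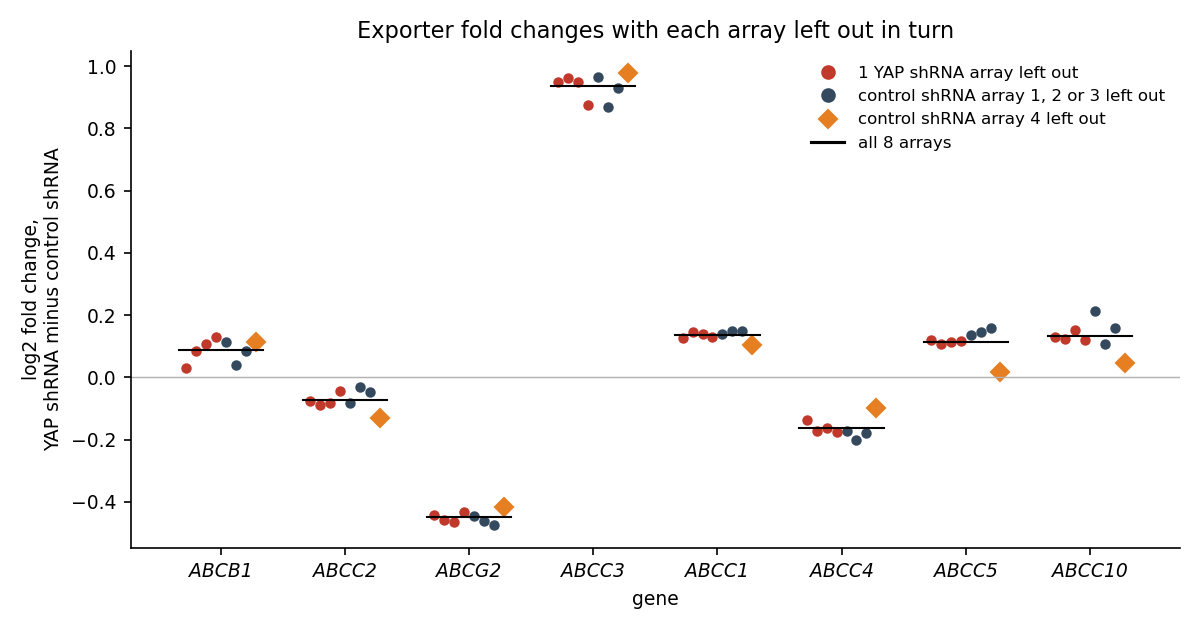
Log2 fold change (YAP shRNA minus control shRNA) of each exporter when 1 array is left out, with black lines for all 8 arrays. Orange diamonds leave out control shRNA replicate 4, which brings ABCC5 to 0.02 and ABCC10 to 0.05. ABCC10 reaches 0.21 without control shRNA replicate 1, while ABCC3 stays between 0.87 and 0.98 and ABCG2 between -0.48 and -0.42.

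The genes whose centred log2 profile over the 8 arrays lay nearest to that of ABCC3 were SERPINB9P1, MBNL3 and LAMA4, with root mean square differences of 0.0700, 0.0744 and 0.0855. Their log2 fold changes were 0.98, 0.92 and 1.04. MBNL3 is a splicing regulator and LAMA4 a laminin chain. Nearest to ABCG2 were GLIPR1, DIAPH3 and LRRC8C, with differences of 0.0319, 0.0328 and 0.0346. Their log2 fold changes were -0.43, -0.46 and -0.46. DIAPH3 is an actin-nucleating formin and LRRC8C a subunit of volume-regulated anion channels. A profile of this kind mostly reflects the difference between the 2 groups. Measured genes with a matched position in GRCh38.p14 were ordered by start. Genes without a matched position were skipped, so others may lie between. Next to ABCC3 in this order are LOC101927253 and ANKRD40, with log2 fold changes of -0.04 and 0.00, and neither passed. Those next to ABCG2 are SPP1 and PPM1K, at -0.30 and 0.14, and neither passed (limma adjusted p = 0.244 and 0.146).

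In the rest of the ABC family, 36 of 40 listed genes were measured, and 4 rose, 1 fell and 31 did not pass, where 9.49% of all genes were called higher and 7.17% lower. The median log2 fold change was 0.08. CFTR, an ABC protein that works as the chloride channel of duct cells, read 6.57, 6.51, 6.61 and 6.80 with the YAP shRNA and 5.85, 5.21, 5.41 and 5.76 with the control shRNA. Its groups did not overlap, and it rose by 1.07 (standard error 0.141; limma adjusted p = 0.00128). ABCA1, the cholesterol exporter, rose by 0.33, TAP1, a peptide transporter of antigen presentation, by 0.29 and the mitochondrial ABCB8 by 0.26 (limma adjusted p = 0.0113, 0.00457 and 0.0331). ABCD3, a peroxisomal transporter, fell by 0.19 (limma adjusted p = 0.0336). The calls on ABCB8 and ABCD3 were each lost when any of several single arrays was left out, among them YAP shRNA replicates 3 and 4 and also control shRNA replicates 3 and 4 (limma adjusted p up to 0.0926 and 0.0917), and that of ABCA1 with the mean of its probe sets (0.0810) and without those ending _x_at or _s_at (0.0710). Without control shRNA replicate 4, 7 of the 36 were called higher and 0 lower by limma, with 3 lower at an unadjusted p below 0.05. With all 8 arrays, ABCG2 was the only measured G-subfamily gene past the test. Its relatives ABCG1, ABCG4, ABCG5 and ABCG8 gave 0.24, 0.09, -0.01 and 0.03, and the difference between them and ABCG2 was not tested. Without control shRNA replicate 4, ABCG1 also passed, higher by 0.39 (limma adjusted p = 0.0262).

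**Figure D4:**
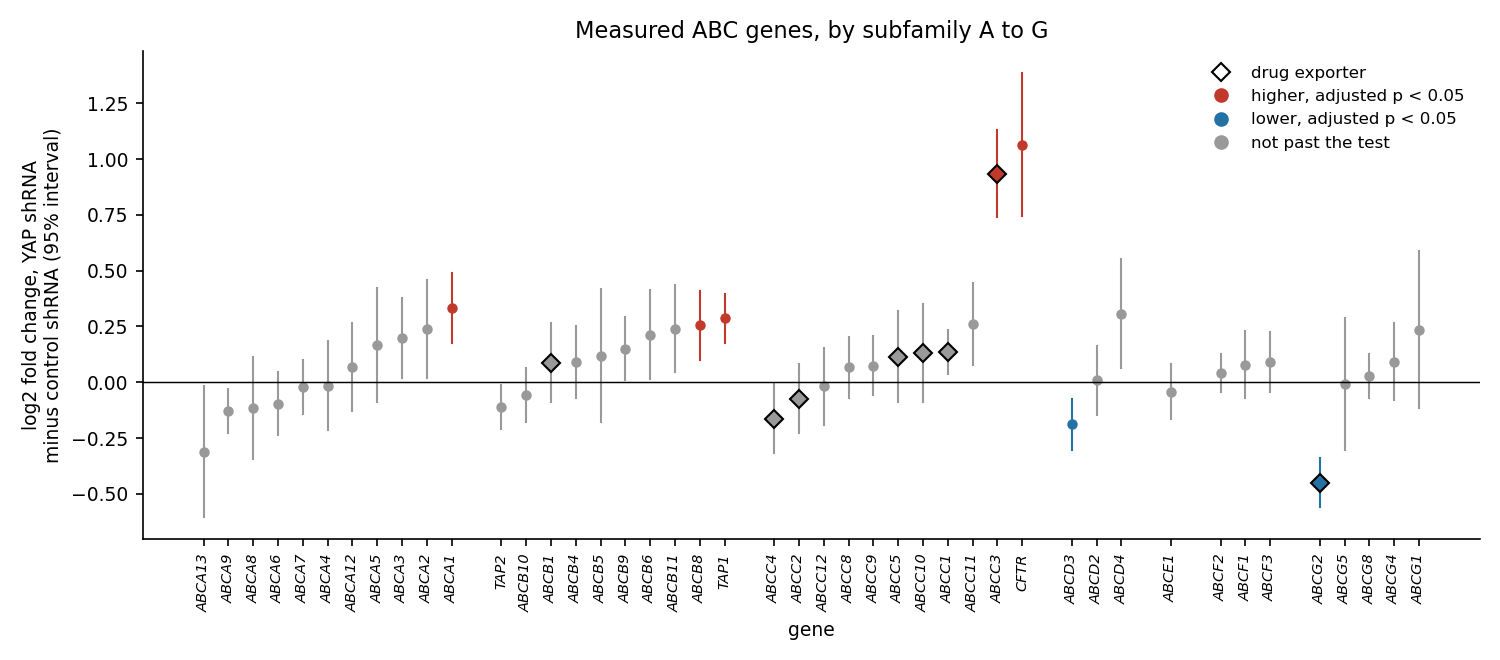
Log2 fold change (YAP shRNA minus control shRNA) with 95% intervals for the 44 measured ABC genes, ordered by subfamily A to G with TAP1 and TAP2 in B and CFTR in C. Diamonds are the drug exporters, red marks higher and blue lower at a limma adjusted p below 0.05. CFTR (1.07) and ABCC3 (0.94) are the highest and ABCG2 (-0.45) the lowest.

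Of 28 listed uptake carriers for drugs and organic anions, 25 were measured, 3 rose, 3 fell and 19 did not pass. Over all genes 16.7% were called in either direction, and the list as a whole was not tested. The median log2 fold change of the list was 0.01. SLCO1B3, which brings bile salts and taxanes into cells, read 11.32, 11.32, 11.23 and 11.30 with the YAP shRNA and 11.72, 11.77, 11.76 and 11.75 with the control shRNA. Its groups did not overlap, and it fell by 0.46 (limma adjusted p = 0.000144). SLC22A5, the carnitine carrier, fell by 0.31 and SLC15A2, a peptide carrier, by 0.33 (limma adjusted p = 0.00781 and 0.0257). SLC29A2, an equilibrative nucleoside carrier, rose by 0.53, and the organic anion carriers SLCO3A1 and SLCO4A1 rose by 0.27 and 0.25 (limma adjusted p = 0.00525, 0.00175 and 0.0110). Without probe sets ending _x_at or _s_at SLC29A2 rose by 0.29 (limma adjusted p = 0.00512). The call on SLC15A2 was lost without any 1 of the YAP shRNA arrays or control shRNA replicate 3 (limma adjusted p up to 0.0750).

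Of 9 other efflux carriers, 8 were measured, 2 rose and 1 fell, where 9.49% of all genes were called higher and 7.17% lower. ATP7B, a copper exporter, read 5.94, 5.36, 5.73 and 5.99 with the YAP shRNA and 6.52, 6.60, 6.57 and 6.77 with the control shRNA. Its groups did not overlap, and it fell by 0.86 (limma adjusted p = 0.00276). MVP, the major vault protein, rose by 0.26 (limma adjusted p = 0.00546). ATP7A, the related copper pump, rose by 0.25 with groups that overlapped (limma adjusted p = 0.0371). Its call was lost with each array centred on its median (limma adjusted p = 0.0522), with quantile normalization (0.0729) and without any 1 of 6 arrays (up to 0.102).

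Of 20 listed regulators of exporter transcription, 14 were measured, 1 rose, 1 fell and 12 did not pass, a share near the 16.7% called over all genes. SP1 rose by 0.20 and NR5A2, a nuclear receptor of bile acid metabolism, fell by 0.45 (limma adjusted p = 0.0203 and 0.0174). Without YAP shRNA replicate 4 both calls were lost (limma adjusted p = 0.0599 and 0.0553), and that of SP1 also without YAP shRNA replicate 2 or control shRNA replicate 3. AHR, the dioxin receptor and an activator of ABCG2, had a log2 fold change of 0.01, NFE2L2 (NRF2) one of -0.06 and its inhibitor KEAP1 one of 0.10, and none of these passed (limma adjusted p = 0.849, 0.382 and 0.171).

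Of 8 membrane anchors and trafficking factors of apical exporters, 0 rose and 2 fell by limma, where 9.49% of all genes were called higher and 7.17% lower. On the brightest probe sets none was higher at an unadjusted p below 0.05, and the median log2 fold change was -0.09. The absence of a rise depended on the probe sets. With the mean of all probe sets of each gene 1 anchor was called higher, as was 1 without probe sets ending _x_at or _s_at. STX3, an apical syntaxin, read 11.09, 11.12, 11.09 and 11.10 with the YAP shRNA and 11.48, 11.45, 11.53 and 11.36 with the control shRNA. Its groups did not overlap, and it fell by 0.35 (limma adjusted p = 0.000937). EZR (ezrin), which ties membrane proteins to actin, fell by 0.12 (limma adjusted p = 0.0367), a call lost without any 1 of 7 arrays (up to 0.101) with quantile normalization (0.0550) and without probe sets ending _x_at or _s_at (0.170).

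Of 14 genes of glutathione supply and conjugation, which make the substrates of ABCC1 and ABCC2, 4 rose and 2 fell, with a median of 0.06. Among all genes, 9.49% were called higher and 7.17% lower. GSTM3, a glutathione transferase, read 11.85, 11.84, 11.90 and 11.84 with the YAP shRNA and 12.19, 12.23, 12.25 and 12.31 with the control shRNA. Its groups did not overlap, and it fell by 0.39 (limma adjusted p = 0.000373). GCLM, a subunit of the enzyme that limits glutathione synthesis, fell by 0.23 (limma adjusted p = 0.00775). MGST2, GSTK1, GSTP1 and MGST3, transferases of the same system, rose by 0.25, 0.18, 0.17 and 0.14 (limma adjusted p = 0.0105, 0.0229, 0.0202 and 0.0280). The calls on GSTK1, GSTP1 and MGST3 were lost without single arrays, among them YAP shRNA replicates 3 and 4 and control shRNA replicate 3 (up to 0.0680, 0.0615 and 0.0803). MGST3 stood at 0.01 on its brightest probe set without the endings _x_at and _s_at (limma adjusted p = 0.974), and its call was also lost with each array centred on its median (0.0520). When all probe sets of each gene were averaged, 7 of the calls on listed genes were lost, those of ABCA1, SLC15A2, ATP7A, NR5A2, SP1, EZR and MGST3 (limma adjusted p from 0.0752 to 0.711). Over these 6 lists, 14 of the 24 calls held with each array left out in turn.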

How the data were processed

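The deposited values, 1 per probe set and array of an Affymetrix HG-U133 Plus 2 type array, are on a log scale taken to be log2 from their range of 1.72 to 14.89. The base is not stated. Per the labels' protocols, RNA from purification columns was amplified with NuGEN reagents and carried a biotin label. How the authors corrected background, summarised probes and normalized these log2 values is not stated in the labels or the file. GEO's platform annotation, which can be old, gave 1 symbol to 41097 of 54675 probe sets, several to 1801 and none to 11777. Each gene was represented by its brightest probe set by mean over 8 arrays. The log2 values were fitted with limma 3.58.1 in R 4.3.3, YAP shRNA minus control shRNA, with no block and no filter, and p-values were Benjamini-Hochberg adjusted over all 19775 genes, or over all 41097 probe sets where single probe sets are given. Genes below 0.05 were called. Tables and promoters were read with pandas 2.3.3 in Python 3.11.15, and figures drawn with matplotlib 3.10.9. The number of arrays limits the precision.

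Groups and replicate numbers came from the sample titles. Same-numbered arrays did not deviate together (correlations of -0.21 to 0.00). The members and lists were chosen with earlier results of these data known. Named genes were all 8 exporters, YAP1, the called genes of 6 further lists and the cell type markers. They also took in the 3 nearest profiles of each called exporter and the preset regulators AHR, NFE2L2 and KEAP1. NR1I2 was preset too but had no probe set with its symbol alone. Neighbouring genes and pairs of probe sets were added after the values were seen. Alternatives were 2 normalizations, 2 limits on dim genes, 2 choices of probe sets, every probe set tested, 2 spread models, array weights, 2 thresholds, each array left out and a replicate block. The fit was tested on simulated data.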

Additional observations from a re-analysis of the deposited data

Results flagged for a closer look

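In 148 groups of 4 arrays, made of the exporter probe sets, YAP1 and the named genes and markers, 9 held an array that stood far off from the remaining 3, and about 7.4 such groups come by chance. Among the exporters these were ABCC3 (208161_s_at) in YAP shRNA replicate 4, at 8.54 where the others lay at 8.29 to 8.32, and ABCC5 (226363_at) in control shRNA replicate 4, at 10.73 where the others lay at 11.10 to 11.16. In control shRNA replicate 4, GSTP1 was high at 13.17 (others 13.07 to 13.08) and LUM at 6.69 (5.62 to 5.80). YAP1 was high at 12.77 in control shRNA replicate 3 (12.59 to 12.61), and DCN was low there at 5.11 (5.46 to 5.52). In YAP shRNA replicate 1, APOA1 stood at 6.93 (6.69 to 6.72) and TTR at 5.85 (5.51 to 5.53). VWF was low at 5.04 in YAP shRNA replicate 2 (5.49 to 5.55).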

How the results depend on the processing

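ABCG2, YAP1 and, with 1 exception, ABCC3 kept their direction and call under every alternative run, and with each array left out in turn they ranged from -0.48 to -0.42, -2.16 to -2.10 and 0.87 to 0.98. The exception is the fit without probe sets ending _x_at or _s_at, where ABCC3 is read by 242553_at and the ABCC3 log2 fold change was -0.043 (limma adjusted p = 0.812), so that 0 exporters were called higher by limma, with 1 higher at an unadjusted p below 0.05. ABCC1 kept its fold change of 0.14 and passed without the dimmest 25% or 50% of genes, with an intensity trend and at a threshold of 0.1 (limma adjusted p = 0.0394, 0.0193, 0.00916 and 0.0685), which made 2 exporters called higher. ABCC5 passed as the mean of its probe sets, at 0.21 (limma adjusted p = 0.0182), which also made 2. Over the other 6 lists, 14 genes were called higher and 10 lower. These became 9 higher without probe sets ending _x_at or _s_at, and 5 higher and 6 lower at a threshold of 0.01. With each array left out they ranged from 8 to 20 higher and from 7 to 10 lower, with 9 higher without YAP shRNA replicate 2, 9 without YAP shRNA replicate 4 and 8 without control shRNA replicate 3. Exporter probe sets ranged from 3 to 5 higher and from 1 to 2 lower, with 2 lower without control shRNA replicate 2. With the replicate block, 7 were called higher and 5 lower over the 6 lists, while the exporters' calls were the same, ABCC3 at 0.94 (limma adjusted p = 0.00247) and ABCG2 at -0.45 (0.0125). ABCC10 has no probe set without those endings, and ABCB1 falls below both limits on dim genes and ABCC2 below the higher one. The cause of the other shifts was not tested. The dim level of ABCB1 limits what its values can show.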
